A study of Mus musculus with 16 samples.

Results

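The genes described here are those of the WNT, R-spondin and beta-catenin pathway, measured in newborn mouse ovaries that lacked the transcription factors RUNX1, FOXL2 or both. A list of 49 pathway genes was set out by role, from secreted ligands to nuclear factors and inhibitors. A gene was measured where a probe set of the array named it alone, and the probe set with the highest mean level stood for it. This gave 48 of the 49 genes, among 18193 genes measured in all. Tcf7 was not analysed here.

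WNT proteins are secreted ligands that bind Frizzled receptors with the co-receptors LRP5 and LRP6, which stops the destruction complex from degrading beta-catenin, so that beta-catenin enters the nucleus and acts with TCF/LEF factors on target genes. R-spondins bind LGR receptors and keep the ligases RNF43 and ZNRF3 from removing Frizzled from the cell surface, and a set of secreted inhibitors holds the ligands or co-receptors back. In the fetal ovary, WNT4 and RSPO1 are known as promoters of female differentiation of the supporting cells, while FOXL2 is known as the factor that maintains granulosa cell identity.

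The study asked how loss of Runx1, of Foxl2 and of both altered ovarian expression, with 4 ovaries in each of 4 groups and 1 array per ovary. Control ovaries were Runx1+/f Foxl2+/+ and carried no Cre transgene (Sf1-cre+/+). Runx1 KO ovaries were Runx1-/f Foxl2+/+ with the transgene (Sf1-cre+/Tg), and Foxl2 KO ovaries were Runx1+/f Foxl2-/- without it. DKO ovaries, which combined both losses, were Runx1-/f Foxl2-/- Sf1-Cre+/Tg. All ovaries were taken at birth (P0) and freed of the mesonephros, on a mixed background, and all carried a floxed Runx1 allele. Sf1-cre acts in the SF1-positive somatic cells of the gonad, whereas the Foxl2 null allele is present in every cell. Both groups that lacked Runx1 carried the transgene and both others did not, so the effects of Cre and of Runx1 deletion cannot be told apart. In whole ovaries, fewer cells of a type and less RNA per cell cannot be told apart either.

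Array medians lay between 134 and 177 intensity units, and arrays of the same genotype correlated at 0.959 to 0.983. The number of arrays, 4 per genotype, limited the precision: the median standard error of a difference between groups was 0.20 on the log2 scale. Foxl2 was at 2774 to 4241 units in control ovaries and at 484 to 890 in Foxl2 KO and 570 to 839 in DKO ovaries, and both differences passed the test (limma, adjusted p = 8.84e-06 and 5.55e-06). Runx1 was at 2142 to 2359 units in control, 932 to 2127 in Runx1 KO and 2111 to 2370 in DKO ovaries. The sources used here do not place its probe set inside or outside the excised exon, so that level is no check of the genotype, and groups are named as labelled. Runx1 KO and DKO ovaries carried the same Runx1 alleles and transgene, yet Runx1 was 0.64 higher in DKO ovaries on the log2 scale. This did not pass (limma, adjusted p = 0.176) but did without Runx1 KO replicate 4 (0.83, adjusted p = 0.03). The reason for this difference was not tested. Of 9 pre-granulosa markers, 4 fell in Foxl2 KO and 5 in DKO ovaries, and their summed intensity went from 12924 to 20032 in control to 10882 to 12773 and 11021 to 11918. Foxl2 itself is among these markers, so its fall, which the genotype fixes, is part of these counts and sums. Irx3, also among them, had a higher mean log2 level in Foxl2 KO (10.58) and DKO (10.42) than in control ovaries (10.05). Of 7 Sertoli markers, 4 rose in each of these groups. The sums over all 7 were 3332 to 4712 in control, 2292 to 4255 in Foxl2 KO and 4573 to 5220 in DKO ovaries. Amh stayed below background in all groups, and Dmrt1 and Dhh lay below it in control ovaries. Among the pre-granulosa markers, Esr2 lay below background in Foxl2 KO and DKO ovaries and Nr5a2 in Foxl2 KO ovaries. Of 4 mesonephric duct markers measured, 1 rose in Foxl2 KO and 1 in DKO ovaries, with sums of 2372 to 3244 in control, 2980 to 3248 in Foxl2 KO and 3115 to 3712 in DKO ovaries and Lhx1 below background in all groups. No marker of surface epithelium, stroma, oocytes, endothelium or macrophages passed the test in any knockout against control. The part that these shifts in cell type markers had in the values below was not tested.

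Differences are given as log2 differences ± standard error, on the scale log2(intensity + 16), from a limma fit over all 18193 genes and 16 arrays. A gene was called changed at a Benjamini-Hochberg adjusted p under 0.05. In Foxl2 KO ovaries 3 of the 48 pathway genes passed, all higher: the nuclear factor Lef1, the ligand Wnt9a and the inhibitor Wif1. These were 6.25% of the pathway genes, where 1.52% of all genes passed and 0.813% passed as higher. In DKO ovaries 3 passed, Lef1 and Wif1 higher and the inhibitor Sfrp4 lower, again 6.25% against 2.13% of all genes, of which 1.28% passed as higher and 0.857% as lower. In Runx1 KO ovaries limma called 0 pathway genes, as did a per-gene analysis of variance with adjustment, where limma passed 0.121% of all genes. At an unadjusted p under 0.05 Wif1 was higher and Sfrp4 lower, 2 genes or 4.17% against 7.34% of all genes. These 3 comparisons share the same control ovaries, so their values are given side by side and not as separate evidence.

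**Figure D1:**
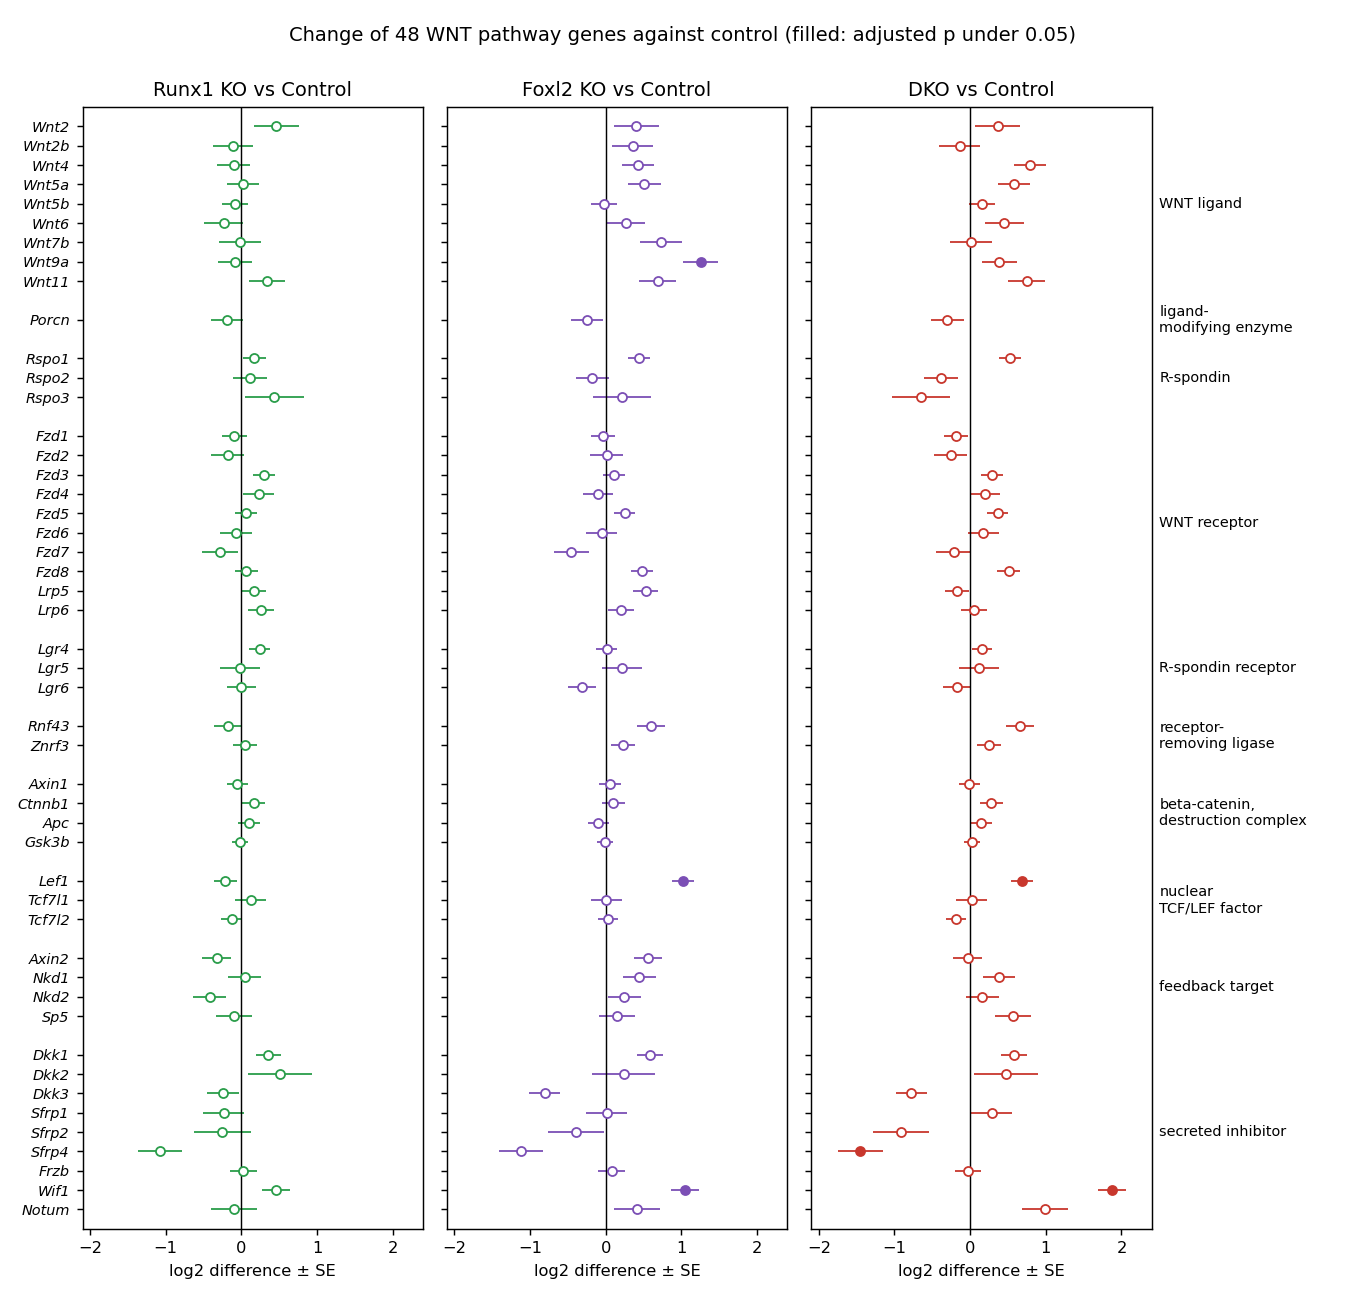
Log2 difference from control ± SE (x axes) of the 48 measured genes (rows, grouped by role at the right) in Runx1 KO, Foxl2 KO and DKO ovaries, 4 ovaries per group. Filled points passed at adjusted p under 0.05: none in Runx1 KO, Lef1, Wnt9a and Wif1 in Foxl2 KO, and Lef1, Wif1 and Sfrp4 in DKO ovaries.

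Below that threshold, more pathway genes lay above control than below it where Foxl2 was lost. In Foxl2 KO ovaries 35 of 48 had a positive difference, with a median of 0.21 against 0.05 over all genes. This median was smaller without control replicate 1 (0.11), control replicate 4 (0.10) or Foxl2 KO replicate 2 (0.11), with quantile normalization (0.12), with equal array medians (0.13) and over the 36 pathway genes above the median level (0.13). At an unadjusted p under 0.05, 14 genes differed, 12 higher and 2 lower, or 29.2% of the pathway genes against 11.0% of all genes (7.17% higher, 3.82% lower). In DKO ovaries 32 were positive, with a median of 0.16 against 0.04, and 15 differed at the unadjusted threshold, 12 higher and 3 lower, or 31.2% against 12.4% (8.19% higher, 4.18% lower). In Runx1 KO ovaries 23 were positive and 25 negative, with a median of -0.02 against 0.04, whose sign turned without control replicate 2 (0.05) or 3 (0.03) or Runx1 KO replicate 2 (0.05) or 3 (0.01).

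Counted by ovary, 9 pathway genes had all 4 Foxl2 KO ovaries above all 4 control ovaries, or 18.8% where 4.49% of all genes did. These were Wnt7b, Wnt9a, Wnt11, Rspo1, Fzd8, Rnf43, Lef1, Dkk1 and Wif1. For Wnt7b, Dkk1 and Wif1 the means of both groups lay below background. The DKO ovaries lay wholly above control for 9 genes too, 18.8% against 4.9% of all genes, and these were Wnt4, Wnt5a, Wnt11, Rspo1, Fzd8, Rnf43, Lef1, Sp5 and Wif1. Dkk3 and Sfrp4 lay wholly below control in both groups, 4.17% of the pathway genes against 2.23% of all genes in Foxl2 KO and 2.71% in DKO ovaries. In Runx1 KO ovaries Dkk1 and Wif1 lay wholly above control, 4.17% against 2.53% of all genes, both at levels below background, and no pathway gene lay wholly below, against 1.44%.

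Among the 9 WNT ligands, Wnt9a, a ligand of the canonical branch, was the one that passed in Foxl2 KO ovaries. Its intensity was 237, 331, 152 and 194 in the 4 control ovaries, 308, 179, 168 and 194 in Runx1 KO, 661, 478, 617 and 458 in Foxl2 KO and 321, 237, 357 and 268 in DKO ovaries. The Foxl2 KO ovaries stood above every ovary of the other 3 groups, which overlapped one another. Wnt9a rose by 1.25 ± 0.23 in Foxl2 KO ovaries (2.39-fold, limma adjusted p = 0.00953), while the DKO value was 0.38 ± 0.23 (adjusted p = 0.546) and the Runx1 KO value -0.09 ± 0.23. A second Wnt9a probe set, at a mean level below background, gave 0.24 ± 0.24 in Foxl2 KO ovaries, and with the mean of both the gene no longer passed (0.75, adjusted p = 0.0536).

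Wnt4, the ligand whose loss is known to masculinise the ovary, was at 404, 742, 656 and 415 in control ovaries and at 998, 894, 1110 and 785 in DKO ovaries. It was at 489, 397, 449 and 701 in Runx1 KO and at 657, 657, 897 and 709 in Foxl2 KO ovaries. Every DKO ovary lay above every control and Runx1 KO ovary, and the Foxl2 KO ovaries overlapped both control and DKO. The DKO difference from control was 0.79 ± 0.21 (adjusted p = 0.0745) and did not pass, although it did with quantile normalization (adjusted p = 0.047). The second Wnt4 probe set gave 0.45 ± 0.24 for the same comparison.

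Wnt11, known mostly for signalling that does not pass through beta-catenin, was at 225, 246, 222 and 185 in control ovaries, 343, 459, 261 and 410 in Foxl2 KO and 382, 394, 267 and 502 in DKO ovaries. Neither knockout group overlapped control, but the differences of 0.69 ± 0.24 and 0.75 ± 0.24 did not pass (adjusted p = 0.251 and 0.153). In Runx1 KO ovaries it was at 369, 224, 189 and 392, which overlapped control. The other 6 ligands (Wnt2, Wnt2b, Wnt5a, Wnt5b, Wnt6 and Wnt7b) did not pass in any comparison. Wnt2 and Wnt7b had means below background in all groups. Wnt5a, also a mainly non-canonical ligand, was at 952 to 1286 in control and 1506 to 1770 in DKO ovaries, without overlap, at 0.58 ± 0.21 (adjusted p = 0.245). In Foxl2 KO ovaries it was at 1067 to 2048, which overlapped control (0.51 ± 0.21, adjusted p = 0.384). Wnt6 was at 1853 to 5111 in control, 2225 to 3714 in Runx1 KO, 3213 to 4261 in Foxl2 KO and 3520 to 5520 in DKO ovaries, so that the control spread covered nearly all other ovaries. Wnt5b, close in sequence to Wnt5a, differed by -0.02 ± 0.17 in Foxl2 KO and 0.16 ± 0.17 in DKO ovaries, and Wnt2b by 0.35 ± 0.27 and -0.14 ± 0.27.

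Porcn, the enzyme that attaches the lipid WNT ligands need for secretion, differed by -0.19 ± 0.21, -0.25 ± 0.21 and -0.30 ± 0.21 from control in Runx1 KO, Foxl2 KO and DKO ovaries.

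Of the 3 R-spondins, none passed. Rspo1, the member known for its part in ovary differentiation, was at 2754, 2845, 2855 and 2153 in control ovaries, 3225, 2652, 2527 and 3609 in Runx1 KO, 3061, 3310, 3860 and 4196 in Foxl2 KO and 3786, 4116, 3419 and 3896 in DKO ovaries. The Foxl2 KO and DKO ovaries all lay above the control ovaries. The differences were 0.44 ± 0.15 (adjusted p = 0.228) and 0.52 ± 0.15 (adjusted p = 0.0911). Rspo2 was at 188 to 311 in DKO against 269 to 385 in control ovaries, with a difference of -0.38 ± 0.22 (adjusted p = 0.532). Rspo3 lay near background in all groups, at 20.2 to 53.7 in control, 36.1 to 140 in Runx1 KO, 30.6 to 87.2 in Foxl2 KO and 6.68 to 43.8 in DKO ovaries. Of the 3 genes, Rspo1 was the one with knockout groups that did not overlap control, while its Runx1 KO ovaries overlapped every other group.

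The 10 WNT receptors and co-receptors and the 3 R-spondin receptors had no call against control. Fzd8, a Frizzled receptor, was at 237, 272, 300 and 227 in control ovaries, 251, 232, 290 and 314 in Runx1 KO, 339, 430, 304 and 399 in Foxl2 KO and 306, 437, 394 and 366 in DKO ovaries. Both groups without Foxl2 lay above control, at 0.48 ± 0.15 (adjusted p = 0.176) and 0.51 ± 0.15 (adjusted p = 0.11). Lrp5, a co-receptor, was at 388, 252, 228 and 221 in control ovaries, 311, 303, 298 and 289 in Runx1 KO, 436, 419, 298 and 420 in Foxl2 KO and 237, 232, 233 and 230 in DKO ovaries. The DKO ovaries lay below every Runx1 KO and Foxl2 KO ovary and within the control range. The Foxl2 KO difference of 0.53 ± 0.16 did not pass (adjusted p = 0.163) but did without control replicate 1, the high control ovary (0.70, adjusted p = 0.0169). The other receptors lay between -0.46 (Fzd7) and 0.25 (Fzd5) in Foxl2 KO and between -0.26 (Fzd2) and 0.36 (Fzd5) in DKO ovaries. Fzd7 was at 1569 to 2097 in control and 987 to 1632 in Foxl2 KO ovaries, and Lrp6, the other co-receptor, at 2325 to 3939 and 3323 to 3847. Fzd5 was at 757 to 1090 in control and 1015 to 1370 in DKO ovaries. Lgr4 and Lgr5, receptors of the R-spondins, differed from control by 0.01 ± 0.14 and 0.22 ± 0.26 in Foxl2 KO and by 0.16 ± 0.14 and 0.12 ± 0.26 in DKO ovaries.

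Rnf43, the ligase that removes Frizzled receptors and is itself induced by the pathway, was at 119, 138, 96.1 and 141 in control ovaries and 83.9, 104, 91.5 and 157 in Runx1 KO ovaries. It was at 179, 210, 242 and 155 in Foxl2 KO and 191, 169, 214 and 239 in DKO ovaries. All ovaries of both groups without Foxl2 lay above all control ovaries, at 0.60 ± 0.19 (adjusted p = 0.169) and 0.65 ± 0.19 (adjusted p = 0.093), neither of which passed. Znrf3, the related ligase, differed by 0.23 ± 0.16 and 0.25 ± 0.16.

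Beta-catenin itself and the destruction complex did not pass in any comparison. Ctnnb1, which encodes beta-catenin, was at 9490 to 12530 in control, 11337 to 12435 in Runx1 KO, 10257 to 11691 in Foxl2 KO and 8951 to 15560 in DKO ovaries, with overlap throughout. Apc, Axin1 and Gsk3b, which build the complex with its kinase, lay within -0.10 and 0.15 of control in all 3 knockout groups. Gsk3b had the smallest errors, with differences of -0.02 ± 0.10, -0.01 ± 0.10 and 0.03 ± 0.10. The mRNA level of these genes does not report beta-catenin protein or its place in the cell.

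Of the 3 TCF/LEF factors measured, Lef1 rose and the other two did not pass. Lef1 was at 622, 718, 607 and 427 in control ovaries, 467, 493, 497 and 554 in Runx1 KO, 1171, 1193, 1359 and 1097 in Foxl2 KO and 954, 1104, 829 and 927 in DKO ovaries. Both groups without Foxl2 lay above every ovary with it, and Runx1 KO ovaries lay within the control range. Lef1 rose by 1.02 ± 0.15 in Foxl2 KO (2.03-fold, adjusted p = 0.00153) and by 0.69 ± 0.15 in DKO ovaries (1.61-fold, adjusted p = 0.0217). The DKO call was lost without DKO replicate 1 (adjusted p = 0.0586), 2 (0.0741) or 4 (0.0524), with the mean of both probe sets (0.078) and with a fit of the groups compared alone (0.128). A second Lef1 probe set gave 1.05 ± 0.27 and 0.72 ± 0.27. Tcf7l1 differed by 0.01 ± 0.20 and 0.02 ± 0.20 and Tcf7l2 by 0.03 ± 0.14 and -0.18 ± 0.14 in the same groups.

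**Figure D2:**
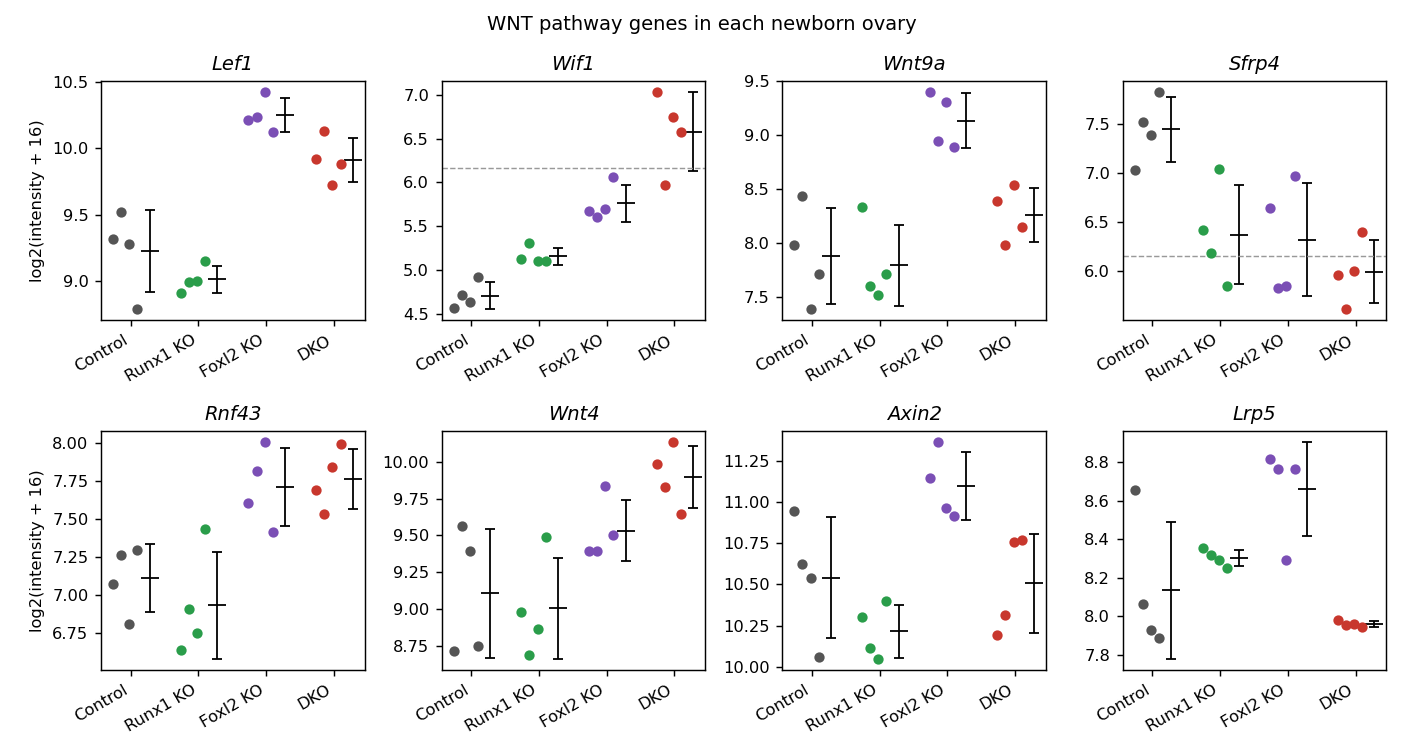
Level of 8 pathway genes, as log2(intensity + 16), in each of 16 newborn ovaries, with the group mean ± SD beside the points (n = 4) and the background level of 6.16 as a dashed line where it falls in the panel. The y axes differ between panels. Foxl2 KO and DKO ovaries lay above control ovaries for Lef1, Wif1 and Rnf43, and below them for Sfrp4.

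The 4 feedback targets, genes that the pathway itself induces in many tissues, had no call against control. Axin2, a scaffold of the destruction complex and a widely used readout of beta-catenin activity, was at 1957, 1562, 1470 and 1050 in control ovaries and 1248, 1093, 1042 and 1332 in Runx1 KO ovaries. It was at 2253, 2632, 1985 and 1916 in Foxl2 KO and 1152, 1256, 1714 and 1732 in DKO ovaries. Only the highest control ovary reached the range of the Foxl2 KO group, and the DKO ovaries lay within the control range. The differences from control were 0.56 ± 0.19 (adjusted p = 0.233) in Foxl2 KO and -0.03 ± 0.19 in DKO ovaries. Nkd1 and Nkd2, inhibitors of the signalling protein Dishevelled, differed by 0.44 ± 0.22 and 0.24 ± 0.22 in Foxl2 KO and by 0.38 ± 0.22 and 0.16 ± 0.22 in DKO ovaries. Sp5, a transcription factor, was at 203 to 362 in control and 404 to 485 in DKO ovaries, at 0.56 ± 0.24 (adjusted p = 0.333).

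Of the 9 secreted inhibitors, Wif1 passed as higher in Foxl2 KO and DKO ovaries, Sfrp4 passed as lower in DKO ovaries, and the other 7 did not pass. Wif1, which binds WNT ligands outside the cell, was at 7.63, 10.2, 8.84 and 14.3 in control ovaries, 19, 23.5, 18.3 and 18.3 in Runx1 KO, 35.1, 32.7, 35.7 and 50.9 in Foxl2 KO and 115, 46.7, 91 and 79.6 in DKO ovaries. The 4 groups were in this order with no overlap except between the highest Foxl2 KO and the lowest DKO ovary. As background, the highest mean of 4 Y-linked genes, which ovaries lack, was taken after their values were seen: 6.16 on the log2 scale, or 55.4 units. That mean was of Usp9y, while Uty, Eif2s3y and Kdm5d had means of 4.51, 5.01 and 5.34. The Wif1 means in control (4.71), Runx1 KO (5.16) and Foxl2 KO (5.76) lay under 6.16 and that of DKO ovaries (6.58) above it. The Foxl2 KO mean lay above those of Uty, Eif2s3y and Kdm5d.

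The fitted Wif1 difference from control passed for Foxl2 KO ovaries at 1.05 ± 0.19 (adjusted p = 0.00775) and for DKO ovaries at 1.87 ± 0.19 (adjusted p = 2.92e-05). As both levels lay below background in the former, no fold is given there. With control set at background, which gives a lower bound under that background, Wif1 was 1.34-fold higher in DKO ovaries. That background is a mean, and its gene reached 6.77 in its highest ovary, above the Wif1 DKO mean of 6.58. DKO replicate 2, at 46.7 units, lay under the background of 55.4 units. The Runx1 KO difference of 0.45 ± 0.19 did not pass (adjusted p = 0.61), though all 4 ovaries lay above control.

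Sfrp4, a secreted Frizzled-related protein, was at 115, 168, 152 and 211 in control ovaries and 69.4, 56.6, 116 and 41.6 in Runx1 KO ovaries. It was at 83.9, 40.7, 41.5 and 109 in Foxl2 KO and 46.5, 33, 48.1 and 68.6 in DKO ovaries. All knockout ovaries lay below control except 1 Runx1 KO ovary, which stood just above the lowest control ovary. Sfrp4 fell by 1.45 ± 0.29 in DKO ovaries (adjusted p = 0.0134), where its mean of 6.0 lay below background. With DKO ovaries under that mean background set to it, Sfrp4 was 2.33-fold lower, which is a lower bound of its fall under that background. The Foxl2 KO and Runx1 KO differences, -1.13 ± 0.29 and -1.07 ± 0.29, did not pass (adjusted p = 0.0757 and 0.31).

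Dkk3, a divergent member of the Dickkopf family, was at 664, 821, 862 and 618 in control ovaries, 807, 454, 545 and 721 in Runx1 KO, 554, 335, 348 and 444 in Foxl2 KO and 371, 440, 355 and 544 in DKO ovaries. Both groups without Foxl2 lay below control, at -0.81 ± 0.21 (adjusted p = 0.0722) and -0.78 ± 0.21 (adjusted p = 0.0706), and neither passed. The second Dkk3 probe set gave -0.73 ± 0.18 and -0.74 ± 0.18, and with the mean of both the gene passed in Foxl2 KO (-0.77, adjusted p = 0.0212) and DKO ovaries (-0.76, adjusted p = 0.0169).

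Notum, a secreted enzyme that strips the lipid from WNT ligands, was at 14, 47.4, 64.1 and 27.8 in control ovaries, 40.5, 13.9, 44.9 and 33.9 in Runx1 KO, 59.3, 51.4, 43.9 and 53 in Foxl2 KO and 123, 64.6, 52.3 and 120 in DKO ovaries. The DKO ovaries overlapped control and Foxl2 KO but lay above all Runx1 KO ovaries. Its means lay below background except in DKO ovaries, and the DKO difference from control did not pass (0.99 ± 0.31, adjusted p = 0.133). Dkk1, an inhibitor that binds the co-receptors, had all its means below background, with values of 23.4, 16, 20.5 and 11.7 in control, 25.4, 26.5, 26 and 30.4 in Runx1 KO, 30.2, 35.4, 32.3 and 40.5 in Foxl2 KO and 21.3, 50.2, 43.6 and 27.5 in DKO ovaries. Its Runx1 KO and Foxl2 KO ovaries lay above control and its DKO ovaries overlapped it, and it did not pass (adjusted p = 0.131 in Foxl2 KO and 0.105 in DKO ovaries). Sfrp1, Sfrp2, Dkk2 and Frzb did not pass. Sfrp1 was at 1296 to 2710 in control and 2035 to 2685 in DKO ovaries (0.28 ± 0.27), and Frzb lay below background in all groups. Sfrp2 had the most negative DKO difference of the 4, at 493 to 1350 in control and 309 to 891 in DKO ovaries (-0.92 ± 0.37, adjusted p = 0.309).

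**Figure D3:**
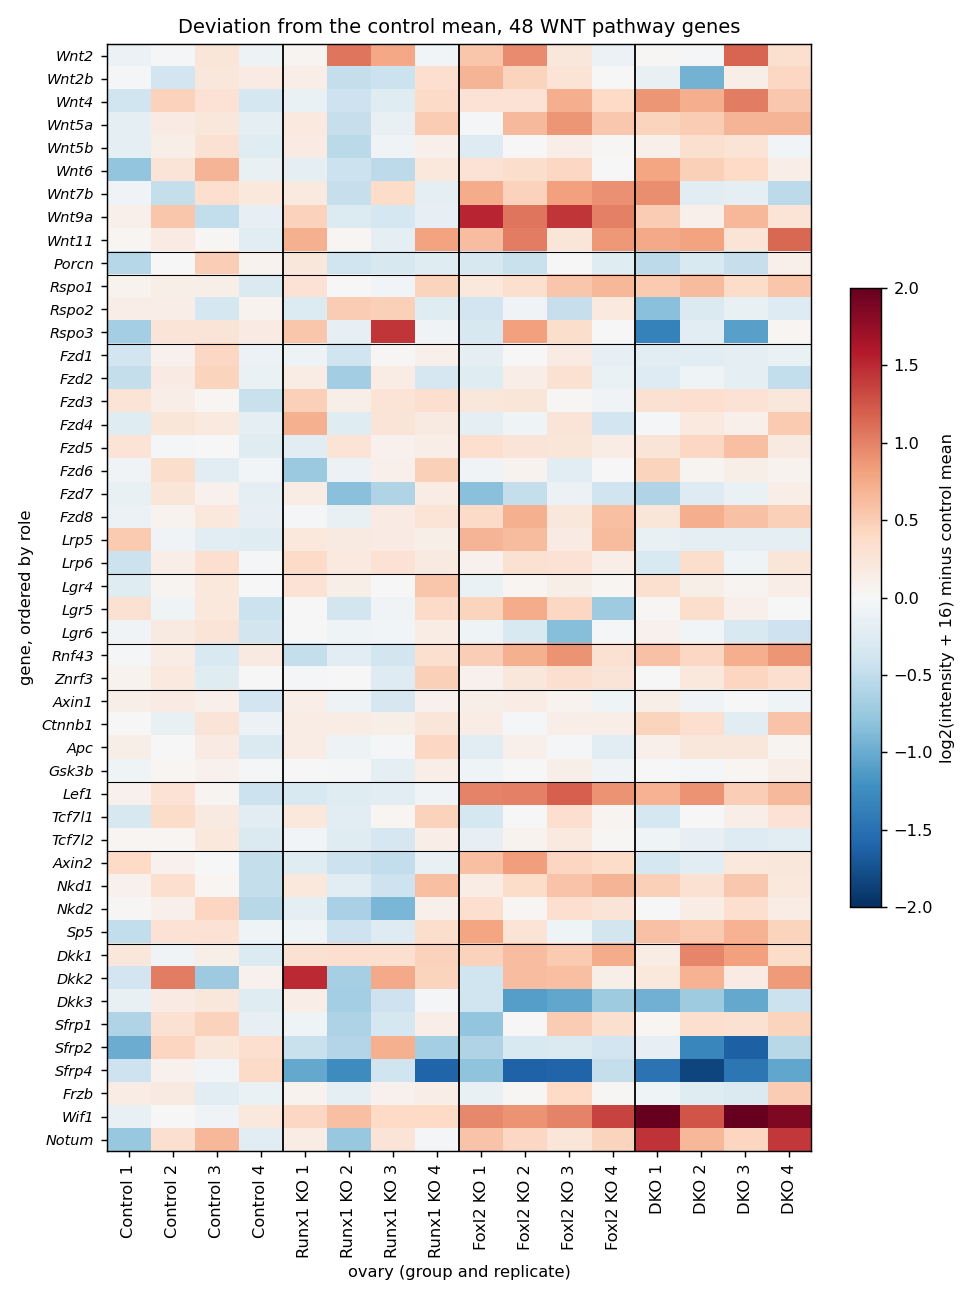
Deviation of each of 16 ovaries (columns) from the control mean, in log2(intensity + 16), for the 48 measured genes in role order (rows), with red above and blue below control. Lef1 and Wif1 were above the control mean in all Foxl2 KO and DKO ovaries, Wnt9a most in Foxl2 KO ovaries, and Sfrp4 was below it in all knockout ovaries.

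The DKO ovaries were also set against each knockout alone, to ask what loss of the other factor added. Against Foxl2 KO ovaries limma called 0 of 48 pathway genes, as did the adjusted analysis of variance, where limma passed 0.0605% of all genes, and 7 differed at an unadjusted p under 0.05, 1 higher and 6 lower, or 14.6% against 5.38% of all genes (2.49% higher, 2.89% lower). Axin2, Lrp5 and Wnt9a had all DKO ovaries below all Foxl2 KO ovaries, 6.25% against 1.79% of all genes, and no pathway gene had all above, against 1.78%. The differences were -0.59 ± 0.19 for Axin2 (adjusted p = 0.557), -0.70 ± 0.16 for Lrp5 (adjusted p = 0.165) and -0.87 ± 0.23 for Wnt9a (adjusted p = 0.3). A second Axin2 probe set gave -0.76 ± 0.18, and the second Wnt9a probe set -0.02 ± 0.24. Wif1 differed by 0.82 ± 0.19 (adjusted p = 0.164) and passed without DKO replicate 2, the lowest DKO ovary (1.03, adjusted p = 0.0229).

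Against Runx1 KO ovaries 3 pathway genes passed, all higher: Lef1, Wif1 and Rnf43. Lef1 differed by 0.90 ± 0.15 (1.86-fold, limma adjusted p = 0.00641) and Rnf43 by 0.83 ± 0.19 (1.78-fold, adjusted p = 0.0462). Wif1 differed by 1.42 ± 0.19 (limma adjusted p = 0.00102), with a lower bound of 1.34-fold when Runx1 KO was set at background. These 3 genes were 6.25% of the pathway genes against 0.989% of all genes, or 0.423% counted as higher. At an unadjusted p under 0.05, 15 differed, 11 higher and 4 lower, or 31.2% against 9.43% of all genes (5.28% higher, 4.14% lower). Rnf43 no longer passed in 11 of the 16 fits that left out 1 ovary (adjusted p up to 0.148, without Runx1 KO replicate 3). It was also lost under 6 of 14 other alternatives, among them the replicate number as a block (adjusted p = 0.0817) and the groups compared alone (0.1395). Lef1 did not pass with the mean of both its probe sets (0.71, adjusted p = 0.116). Wnt4 differed by 0.90 ± 0.21 (adjusted p = 0.0641). All DKO ovaries lay above all Runx1 KO ovaries for 6 genes (Wnt4, Rnf43, Lef1, Sp5, Wif1 and Notum), 12.5% against 3.22% of all genes, and below them for Lrp5, 2.08% against 2.71%.

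Whether loss of Runx1 acted differently with and without Foxl2 was tested as the difference of both differences. Limma and the adjusted analysis of variance called 0 pathway genes, where limma passed 0.011% of all genes. At an unadjusted p under 0.05 there were 3, all with a negative value, or 6.25% against 5.33% of all genes (3.4% negative): Lrp5 at -0.87 ± 0.23 (adjusted p = 0.599), Wnt9a at -0.78 ± 0.32 (adjusted p = 0.906) and Rspo3 at -1.30 ± 0.54 (adjusted p = 0.907), the last near background. For Lef1 it was -0.12 ± 0.21. For Wif1, with 3 of the 4 group means below background, the value of 0.37 ± 0.26 cannot be read.

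**Figure D4:**
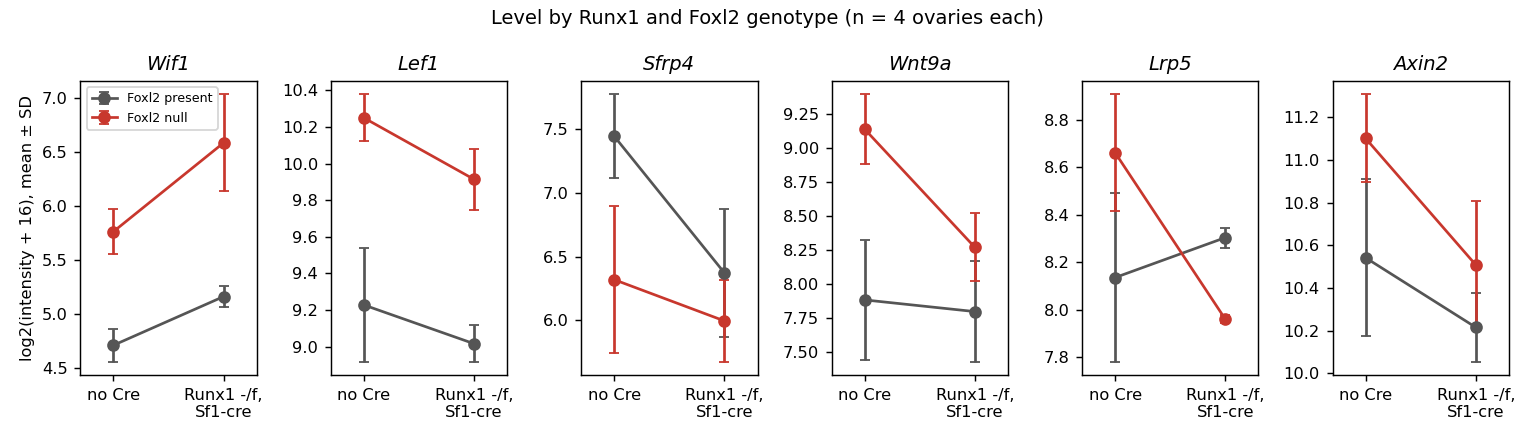
Mean level ± SD (n = 4 ovaries), as log2(intensity + 16), of 6 pathway genes without Cre and with Runx1-/f and Sf1-cre (x axis), with Foxl2 present (grey) or null (red). The y axes differ between panels. The lines run close to parallel for Lef1, converge for Wnt9a and cross for Lrp5. The limma test of the difference of both differences gave adjusted p = 0.906 for Wnt9a and 0.599 for Lrp5.

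Promoter sequences, from RefSeq on GRCm38.p6, are shown for 3 of the genes that passed and for Sp5, a feedback target that holds the full TCF/LEF letters. Each run covers 250 bases before the start, on the plus strand of the genome, which is also the strand of the gene. Capitals mark short core letters found on either strand: TGTGG, as in RUNX sites, TAAACA, as in forkhead sites, and CTTTG, as in TCF/LEF sites. These cores were chosen after the values were seen and do not overlap one another in these windows.
Wif1, chr10:121033754-121034003: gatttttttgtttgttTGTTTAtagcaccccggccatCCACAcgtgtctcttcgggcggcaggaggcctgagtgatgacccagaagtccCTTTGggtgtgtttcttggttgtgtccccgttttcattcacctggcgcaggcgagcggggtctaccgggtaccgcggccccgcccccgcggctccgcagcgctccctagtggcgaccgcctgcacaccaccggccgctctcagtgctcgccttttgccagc
Lef1, chr3:131110047-131110296, the first of 4 starts in the table: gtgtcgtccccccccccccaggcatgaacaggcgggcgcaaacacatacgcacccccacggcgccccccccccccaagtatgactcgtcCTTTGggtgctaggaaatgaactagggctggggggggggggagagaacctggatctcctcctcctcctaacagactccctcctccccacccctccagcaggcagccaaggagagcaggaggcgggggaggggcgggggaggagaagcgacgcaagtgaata
Wnt9a, chr11:59306680-59306929: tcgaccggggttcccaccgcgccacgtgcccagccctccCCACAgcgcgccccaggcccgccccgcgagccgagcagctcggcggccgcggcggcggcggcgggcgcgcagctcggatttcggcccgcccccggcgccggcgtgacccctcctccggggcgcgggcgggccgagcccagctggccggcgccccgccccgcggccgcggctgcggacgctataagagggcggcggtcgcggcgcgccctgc
Sp5, chr2:70474673-70474922: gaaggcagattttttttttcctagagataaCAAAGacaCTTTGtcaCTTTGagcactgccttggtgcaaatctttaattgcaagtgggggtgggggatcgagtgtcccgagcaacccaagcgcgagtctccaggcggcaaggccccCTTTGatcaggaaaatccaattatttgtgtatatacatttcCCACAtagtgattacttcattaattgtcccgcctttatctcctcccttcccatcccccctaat

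The Wif1 window held 1 match of each core, at 213 (TGTGG), 234 (TAAACA) and 161 (CTTTG) bases before the start. Lef1 held CTTTG at 161 in the window shown, and over its 4 starts CTTTG was in 4 windows and TGTGG in 1, while Wnt9a held TGTGG at 211. Such cores are common: TGTGG is in 49.3% of all 32851 promoters of this length, CTTTG in 48.6% and TAAACA in 12%. The longer TGTGGT (RUNX), TGTTTAC (forkhead) and CTTTGAT (TCF/LEF), in 14%, 3.17% and 3.21% of all promoters, were searched in 38 promoters of 29 measured pathway genes. TGTGGT was in Dkk1 alone, TGTTTAC in none, and CTTTGAT in Sp5, Wnt11 and Wnt5b.

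A further 76 genes of the pathway were measured from a longer list of ligands, receptors, polarity genes, cofactors and targets. Limma called 0 of them in Runx1 KO (7 at an unadjusted p under 0.05), 1 in Foxl2 KO and 3 in DKO ovaries, all higher, with medians of 0.05, 0.10 and 0.07. The called shares were 1.32% in Foxl2 KO, against 1.52% of all genes, and 3.95% in DKO ovaries, against 2.13%. At the unadjusted threshold 9.21% differed in Runx1 KO (7.34% of all genes), 13 genes or 17.1% in Foxl2 KO (11.0%) and 14 genes or 18.4% in DKO ovaries (12.4%). Celsr2, an atypical cadherin of planar cell polarity, was at 574, 551, 412 and 360 in control ovaries, 851, 513, 475 and 708 in Runx1 KO, 726, 885, 779 and 859 in Foxl2 KO and 1181, 1040, 1093 and 1144 in DKO ovaries. The groups without Foxl2 lay above control, and DKO above all other ovaries. Celsr2 rose by 0.78 ± 0.18 in Foxl2 KO (adjusted p = 0.0469) and by 1.23 ± 0.18 in DKO ovaries (adjusted p = 0.00134). The Foxl2 KO call was lost in 12 of the 16 fits that left out 1 ovary (adjusted p up to 0.137, without control replicate 3) and under 9 of 15 other alternatives (up to 0.192), and the DKO call in none of these but with the mean of its probe sets (0.84, adjusted p = 0.0769).

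Ccnd1, which encodes cyclin D1, was at 486, 690, 591 and 550 in control and 1273, 1166, 1146 and 907 in DKO ovaries, and rose by 0.94 ± 0.21 (adjusted p = 0.0307). Tiam1, an activator of the GTPase RAC, was at 412, 647, 438 and 721 in control and 789, 1157, 1538 and 1078 in DKO ovaries, and rose by 1.02 ± 0.21 (adjusted p = 0.0142). For both genes all DKO ovaries lay above all control ovaries. The Ccnd1 call was lost without control replicate 1, 3 or 4 or DKO replicate 1, 2 or 3 (limma adjusted p up to 0.0991). It was also lost with the replicate block (0.081) and in the adjusted analysis of variance (0.0599). The Tiam1 call was lost without control replicate 1 or 3 (limma adjusted p up to 0.0532) and in a fit of the groups compared alone (0.1). In Runx1 KO and Foxl2 KO ovaries Ccnd1 differed by 0.56 ± 0.21 and 0.78 ± 0.21 and Tiam1 by 0.53 ± 0.21 and 0.54 ± 0.21, and none of these passed. Of the further genes not called, the 5 with the smallest unadjusted p against control were Cd44, Sostdc1, Gpc4, Wnt16 and Ror1. Cd44, a cell surface glycoprotein and pathway target, was at 412 to 1098 in control, 471 to 633 in Runx1 KO, 246 to 385 in Foxl2 KO and 580 to 642 in DKO ovaries, with all Foxl2 KO ovaries below the other 3 groups (-0.95 ± 0.24 from control, adjusted p = 0.0653). Sostdc1, a secreted WNT and BMP antagonist, was at 68 to 121 in control and 130 to 496 in DKO ovaries (1.40 ± 0.37, adjusted p = 0.0652). In Foxl2 KO ovaries Gpc4 and Ror1 differed by -0.36 ± 0.12 and -0.74 ± 0.26 (adjusted p = 0.205 and 0.251), and Wnt16 lay below background in all groups.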

How the data were processed

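RNA from 16 newborn ovaries was hybridised to Affymetrix mouse genome arrays, 1 per ovary. The deposited values are linear intensities per probe set, which the authors made with Affymetrix Expression Console 1.2 per the labels. How that software summarised the deposited values is not given in the sources used here. The study's own analysis of variance was run on log2 intensities normalized by Robust Multichip Average (RMA), whereas the deposited values are linear. The mean of each array's intensities, less 2% at each end, was 500.002, so the arrays had been scaled to a common mean, which removes shifts of total RNA. The planned fit assumed log2 values, so log2(intensity + 16) was taken. Of 45101 probe sets, 34945 named 1 gene, 932 several and 9160 none, and 64 were controls. Each gene was represented by its probe set of highest mean, which left 18193 genes. The 48 measured pathway genes had 108 probe sets, with several for 35 genes.

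A mean per group was fitted over all arrays with limma 3.58.1 (lmFit, eBayes) in R 4.3.3, with 12 residual degrees of freedom, two-sided tests and Benjamini-Hochberg adjustment over all genes. Folds are on the log2(intensity + 16) scale and understate changes of dim genes. Genes of the list of 49 that passed in any comparison, or had an unadjusted p under 0.01 in a pairwise one, are given by ovary. Of the further pathway genes, those that passed against control are given by ovary and the 5 next by unadjusted p by range, difference or name. The pathway genes, lists and tests were chosen with earlier results of these data known. On simulated data for Foxl2 KO against control over 18193 genes, the fit recovered 26.7% of 1.5-fold, 63.3% of 2-fold and 92.7% of 4-fold changes, and 6.26% of its calls were false. Alternatives covered scaling, offset, probe set choice, filter, prior, array weights, replicate block, a per-gene analysis of variance and leaving out each ovary. Replicates were single ovaries, numbered within a genotype. Samples with the same number did not deviate together (1 of 24 correlations over 0.1, median -0.03).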

Additional observations from a re-analysis of the deposited data

Results flagged for a closer look

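Of 192 sets of 4 ovaries (48 genes in 4 groups), 10 had an ovary that stood apart from the other 3 by Dixon's 95% criterion, in which the gap to its nearest neighbour is divided by the group's whole range on the log2 scale. Chance flags about 1 in 20 such sets. In control ovaries these were Rspo1 (replicate 4 lowest, 0.873), Rspo2 (replicate 3 lowest, 0.868), Rspo3 (replicate 1 lowest, 0.901), Axin1 (replicate 4 lowest, 0.873) and Sfrp2 (replicate 1 lowest, 0.857). In Runx1 KO ovaries they were Sfrp2 (replicate 3 highest, 0.836) and Wif1 (replicate 2 highest, 0.857). In Foxl2 KO ovaries they were Lrp5 (replicate 3 lowest, 0.893) and Ctnnb1 (replicate 2 lowest, 0.907), and in DKO ovaries Fzd6 (replicate 1 highest, 0.84). The highest summed erythroid marker intensity of a control ovary was 11235, where no knockout ovary exceeded 501, and its part in these values was not tested.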

How the results depend on the processing

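None of 45 differences followed for named genes turned its direction under the alternatives run. These 45 were chosen as called, or with a limma unadjusted p under 0.01, so a turn was unlikely from the start. Smaller differences of the same genes were not followed. Against control, the pathway median in Runx1 KO and the all-gene median in Foxl2 KO ovaries did turn sign. So did the pathway and all-gene medians of DKO against Foxl2 KO and of the difference of differences. For DKO against Runx1 KO the all-gene median turned as well. With array weights 5 pathway genes passed in Foxl2 KO and 5 in DKO ovaries, and with a trended robust prior 6 passed in DKO ovaries, where Dkk3, Rspo1 and Wnt4 joined Lef1, Wif1 and Sfrp4. A per-gene analysis of variance, unadjusted and with a 1.5-fold minimum as in the methods but on log2(intensity + 16) and not on RMA values, gave 1 pathway gene in Runx1 KO (2.08% against 2.8% of all genes), 9 in Foxl2 KO (18.8% against 5.02%) and 9 in DKO ovaries (18.8% against 5.97%) against control. It gave 5 in DKO against Foxl2 KO (10.4% against 2.21%), 8 in DKO against Runx1 KO (16.7% against 4.13%) and 2 for the difference of differences (4.17% against 3.14%). Without probe sets shared by several transcripts Wif1 was not measured, since its probe set is of this kind. Against control, 2 genes then passed in Foxl2 KO (Lef1 and Wnt9a) and 2 in DKO ovaries (Lef1 and Sfrp4). In DKO against Runx1 KO 1 gene passed, Lef1, since Rnf43 was lost too. Leaving out each ovary in turn gave 0 to 0 genes in Runx1 KO, 3 to 4 in Foxl2 KO and 2 to 4 in DKO ovaries against control, 0 to 1 in DKO against Foxl2 KO (Wif1, without DKO replicate 2), 2 to 4 in DKO against Runx1 KO and 0 to 0 for the difference of differences. A fit of only the groups compared could give no difference of differences. With equal array medians the genes called over the whole array in Foxl2 KO ovaries were 97 higher and 144 lower, against 148 and 128 without that scaling, and the pathway median was 0.13 against -0.02 over all genes.

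With the replicate number as a block, which the data did not bear out as a pairing, 3 pathway genes passed in Foxl2 KO, 3 in DKO against control and 2 in DKO against Runx1 KO, where Rnf43 was lost. Among the further genes Celsr2 in Foxl2 KO and Ccnd1 in DKO ovaries were lost, and no other call named against control changed. With 4 ovaries per genotype and simulated 1.5-fold changes mostly missed, a difference that did not pass does not show that levels were alike. Genes with means below background, among them Wif1 in 3 groups, have uncertain sizes of change.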
